A study of Arabidopsis thaliana with 12 samples.

Results

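AT5G47030, which encodes the delta subunit of the mitochondrial ATP synthase, and AT4G17260, which encodes L-lactate dehydrogenase, were followed as 1 transcript of respiration and 1 of fermentation. They are 2 of 689 genes that a probe listing no other gene reports on an array of 3439 probes, and each is read by 1 such probe. Both were chosen from the measured difference between pam48 and WT, AT5G47030 as lower and AT4G17260 as higher in pam48, so that difference is described here without a test. The series holds 12 samples of total RNA from Arabidopsis thaliana: 6 of the pam48 mutant, which the labels describe as altered in photosynthesis through a defect in a protein they do not name, and 6 of the wild type (WT), both in ecotype Columbia 0. The samples of each genotype are numbered 1 to 6 in their titles. The sources used here give no tissue, age, growth conditions or number of mutant lines.

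The mitochondrial ATP synthase is a rotary enzyme of the inner membrane that makes ATP with the proton gradient built by the respiratory chain. Its delta subunit belongs to the central stalk of the soluble F1 part and corresponds to the bacterial epsilon subunit. L-lactate dehydrogenase acts in the cytosol, where it reduces pyruvate to lactate and returns NADH to NAD+, so that glycolysis can run without respiration. In plants its transcript is known to rise under low oxygen, together with those of ethanol fermentation.

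The deposited intensities run from 0 to 100 within each sample and had not been brought to a common level. The median probe stood between 0.233 and 0.305 in the pam48 samples and between 0.0913 and 0.192 in the WT samples. In each of the 12 samples the nearest other sample of its genotype was the one with the consecutive number (1 with 2, 3 with 4, 5 with 6), and the labels do not say whether the samples came from separate plants, so the spread given below may be partly technical. Both probes were dim in some samples: AT5G47030 in pam48 4 and AT4G17260 in WT 4 lay below the floor, the lowest normalised intensity treated as measured (0.0464, or -4.43 on the log2 scale), and have only an upper bound there.

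The ATP synthase transcript was dimmer in pam48. Deposited intensity of AT5G47030 was 0.079, 0.132, 0.110, 0.0259, 0.107 and 0.090 in pam48 samples 1 to 6. It was 0.0921, 0.170, 0.123, 0.140, 0.197 and 0.140 in WT samples 1 to 6. On this scale the genotypes overlapped: 3 of the 6 pam48 samples lay below the lowest WT sample, and all 6 lay below the WT mean. Mean intensity was 0.0907 ± 0.0366 in pam48 and 0.144 ± 0.0366 in WT (SD, n = 6 each).

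The lactate dehydrogenase transcript was brighter in pam48. Deposited intensity of AT4G17260 was 0.543, 0.503, 0.858, 0.787, 0.637 and 0.709 in pam48 samples 1 to 6. It was 0.140, 0.0693, 0.0463, 0.0098, 0.294 and 0.281 in WT samples 1 to 6. Every pam48 sample lay above every WT sample, which was also the case for 12.6% of all probes on this scale, where the pam48 samples are brighter as a whole. Mean intensity was 0.673 ± 0.138 in pam48 and 0.140 ± 0.122 in WT (SD, n = 6 each).

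**Figure D1:**
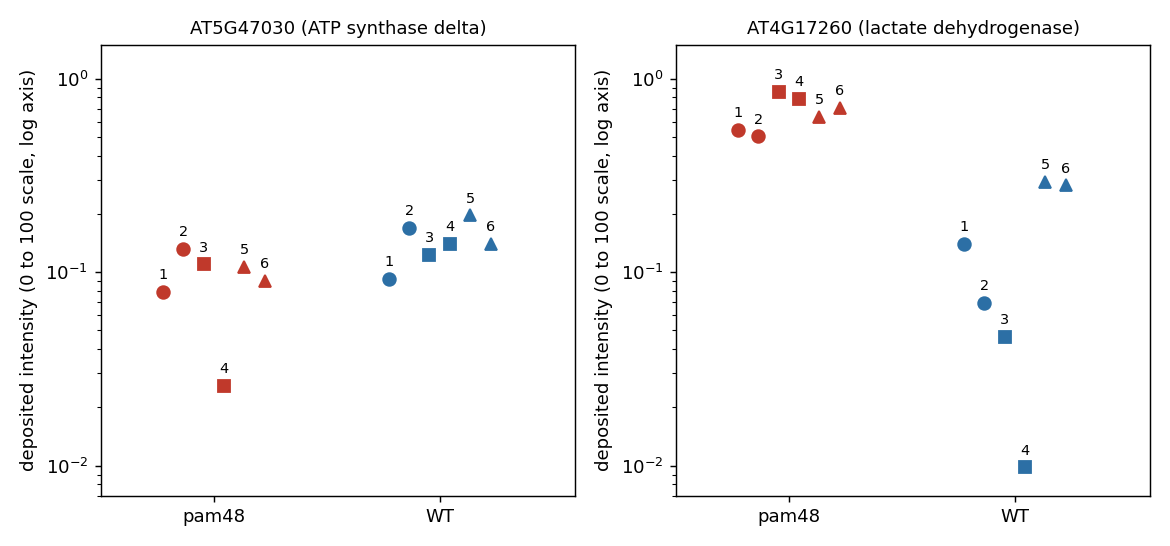
Deposited intensity (vertical log axis, 0 to 100 scale) of AT5G47030 and AT4G17260 in each pam48 and WT sample, with the sample number beside each point and 1 marker shape per couple of consecutive numbers. The pam48 and WT points of AT5G47030 overlap, while all 6 pam48 points of AT4G17260, from 0.503 up, lie above the 6 WT points, which reach 0.294.

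The place of each probe among all probes of its own sample does not depend on how samples are scaled to each other. It is relative to the other probes, so it does not settle whether the level itself changed. AT5G47030 lay at the 19.1, 31.4, 18.9, 6.64, 25.0 and 20.7 percentile in pam48 samples 1 to 6. In WT samples 1 to 6 it lay at the 47.4, 64.4, 56.4, 59.5, 51.4 and 38.6 percentile. By this measure the ATP synthase probe stood no higher than the 31.4 percentile in any pam48 sample and near the middle of the array in WT. The genotypes did not overlap, as for 3.98% of all probes that were lower in pam48 by this measure.

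AT4G17260 lay at the 75.0, 73.5, 81.3, 79.1, 81.6 and 83.7 percentile in pam48 samples 1 to 6. In WT samples 1 to 6 it lay at the 59.3, 40.1, 34.1, 14.9, 64.6 and 63.3 percentile. The lactate dehydrogenase probe thus stood at a narrow range of places in the mutant and at a wide range in WT, with no overlap, as for 2.56% of all probes that were higher in pam48. By percentile the mean shift between genotypes was of much the same size for the 2 genes, at -32.6 points for AT5G47030 and 33.0 for AT4G17260 (pam48 minus WT). In deposited intensity the sizes were unlike, with mean log2 differences of -0.78 and 2.97.

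**Figure D2:**
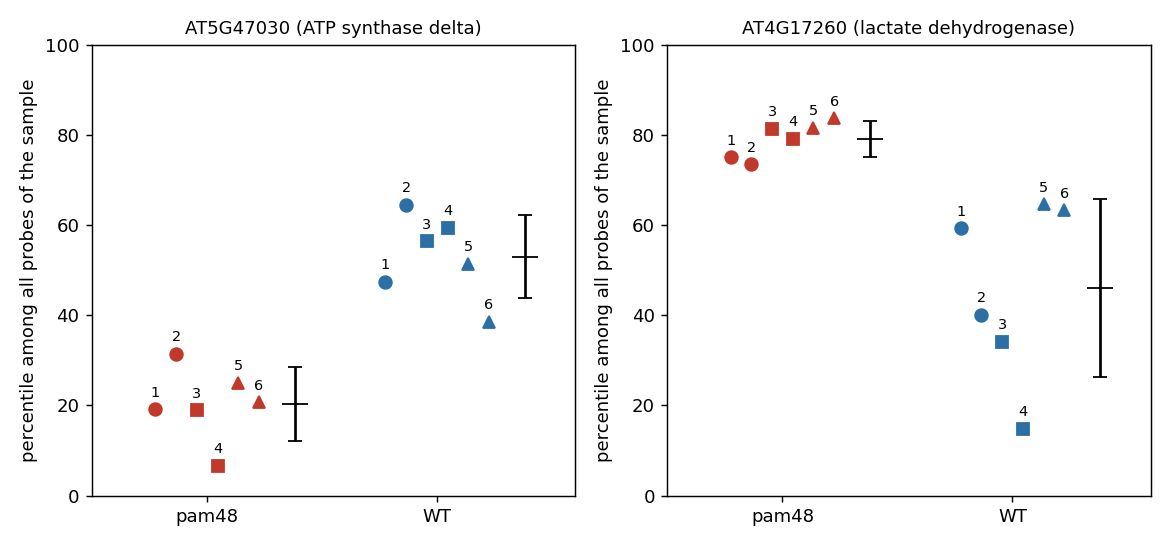
Percentile of AT5G47030 and AT4G17260 among the 3439 probes of each sample (vertical axis, 0 to 100), by genotype, with sample numbers and with the mean and SD of 6 samples as the black bar. AT5G47030 averages 20.3 in pam48 and 52.9 in WT, and AT4G17260 averages 79.0 in pam48 and 46.0 in WT.

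After quantile normalisation AT5G47030 averaged -3.86 ± 0.43 in pam48 and -2.24 ± 0.39 in WT (log2 intensity, SD, n = 6 each). The difference of -1.62 ± 0.24 (log2, SE) is a 3.08-fold lower level in pam48, with pam48 4 counted at the floor. Without the samples numbered 4 it was 2.74-fold lower. Of the pam48 samples kept there, 1, 3 and 6 (-4.03, -4.06 and -3.88) lay little above the floor (-4.43). All 6 pam48 samples lay below the lowest WT sample, as did 3.98% of all probes on this scale. Quantile normalisation keeps the order of probes within a sample, so for both genes this separation repeats that of the percentiles. The size rests on the scaling. From the deposited intensities as printed above, the difference of mean log2 values was -0.78, and the genotypes overlap there. With deposited intensities unscaled but raised to a common floor of their own (0.0493), which is meant below by the values as deposited, it was -0.63 with pam48 4 at the floor, and the median probe was higher by 0.70 in pam48.

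AT4G17260 averaged -0.87 ± 0.29 in pam48 and -2.63 ± 1.04 in WT (normalised log2 intensity, SD, n = 6 each). The difference of 1.75 ± 0.44 (log2, SE) is a 3.37-fold higher level in pam48, with WT 4 counted at the floor. Without the samples numbered 4 it was 2.63-fold higher. Each SE given here takes the 6 samples of a genotype as independent, so with closely agreeing couples it may be too small. All 6 pam48 samples lay above the highest WT sample, as did 2.50% of all probes. From the deposited intensities as printed above, the difference of mean log2 values was 2.97, and on the values as deposited with the floor, at which WT 3 and 4 stood, it was 2.56. By limma's test, 3.93% of all probes were called higher and 7.04% called lower in pam48 at an adjusted p under 0.05 (135 and 242 probes), while on the values as deposited 1225 were called higher and 99 lower. A change as high as that of AT4G17260 or higher was seen for 34 probes, and one as low as that of AT5G47030 or lower for 29. Since both genes were picked on this contrast, these shares place them and test nothing.

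The spread among samples differed between the genes and the genotypes. In WT, deposited intensity of AT4G17260 spanned 30.0-fold from the lowest to the highest sample, and 6.35-fold without WT 4. In pam48 it spanned 1.71-fold. Both WT spans rest on dim spots: WT 4 lay below the floor, and WT 3 (0.0463) below that of the values as deposited (0.0493). WT samples 5 and 6 were the highest, WT 1 came next, and WT 2, 3 and 4 were the lowest, and the couple means of normalised log2 intensity ran from -3.75 to -1.76. For AT5G47030 the span was 5.10-fold in pam48, 1.67-fold without pam48 4, which lay below the floor, and 2.14-fold in WT. The widest departures of both genes thus lay in samples numbered 4.

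The ratio of the 2 probes within a sample is free of any scale factor of that sample, and only its difference between samples is read here, since different probes give no common level. The ratio of AT4G17260 over AT5G47030 in deposited intensity was 6.88, 3.81, 7.82, 30.4, 5.93 and 7.88 in pam48 samples 1 to 6. It was 1.52, 0.407, 0.377, 0.0700, 1.49 and 2.01 in WT samples 1 to 6. Every pam48 ratio lay above every WT ratio, a direction set by the choice of the 2 genes, and the nearest values, 3.81 in pam48 2 and 2.01 in WT 6, differ by less than the span within either genotype. On the log2 scale the ratio averaged 3.02 ± 1.01 in pam48 and -0.73 ± 1.84 in WT (SD, n = 6 each), a difference of 3.75 ± 0.86 (SE). Without the samples numbered 4, where a probe below the floor sets the ratio in each genotype, the difference was 2.75, or 6.72-fold. After normalisation with the floor it was 3.38 ± 0.59 (SE) with all samples.

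**Figure D3:**
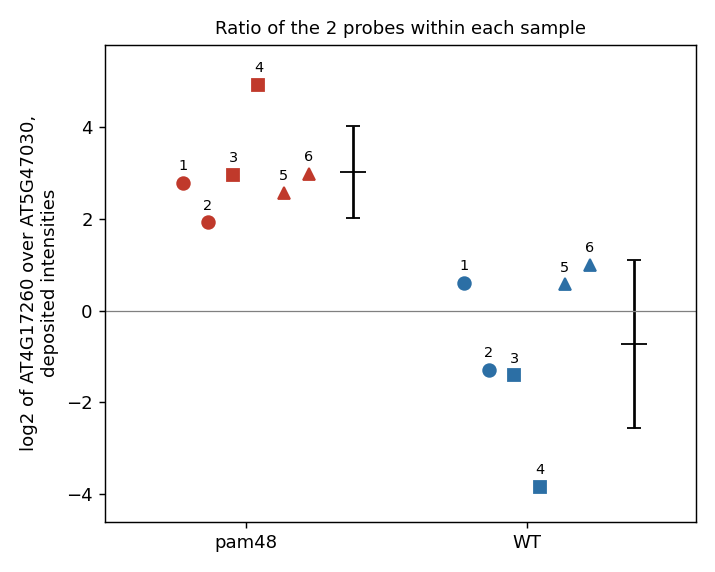
Log2 of the deposited intensity of AT4G17260 over that of AT5G47030 within each sample (vertical axis), by genotype, with sample numbers and with the mean and SD of 6 samples as the black bar. The lowest pam48 value is 1.93 and the highest WT value is 1.01, and samples numbered 4 hold the highest pam48 value, 4.93, and the lowest WT value, -3.84.

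Samples of the same number can be set side by side to see the size of the difference, its direction being fixed by the separation of the genotypes above. The normalised log2 difference of AT5G47030 was -1.56, -1.46, -1.96, -2.46, -1.26 and -1.03 for numbers 1 to 6. That of AT4G17260 was 0.81, 1.53, 2.34, 3.55, 1.03 and 1.27. Both genes differed most in number 4, where each rests on a value at the floor.

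By couple of consecutive numbers, the difference of AT5G47030 (pam48 minus WT, log2) was -1.51 in numbers 1 and 2, -2.21 in 3 and 4 and -1.15 in 5 and 6. That of AT4G17260 was 1.17, 2.94 and 1.15 in the same couples. For both genes the difference in numbers 3 and 4 exceeded that in the other couples. In numbers 5 and 6 the 2 normalised changes were of nearly equal size, 2.22-fold lower for AT5G47030 and 2.22-fold higher for AT4G17260. In deposited intensity the same couple gave 1.69-fold lower and 2.34-fold higher. With each couple as 1 value, AT5G47030 averaged -3.86 ± 0.34 in pam48 and -2.24 ± 0.30 in WT, and AT4G17260 averaged -0.87 ± 0.31 in pam48 and -2.63 ± 1.02 in WT (log2 intensity, SD, n = 3 couples). That the couple means do not overlap follows from the separation of the single samples, and it held for 9.04% of all probes as lower and 5.90% as higher in pam48. Over the whole array, averaging the couples left 0 calls by limma (388 probes had an unadjusted p under 0.05), and a random block for the couples left 61 (1.77%).

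**Figure D4:**
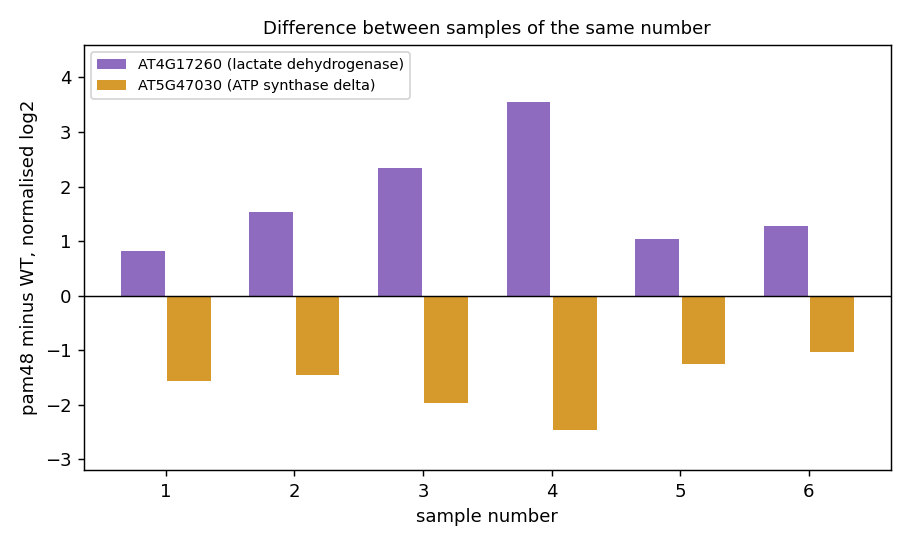
Difference in normalised log2 intensity between the pam48 and the WT sample of the same number (vertical axis) for AT4G17260 and AT5G47030, over sample numbers 1 to 6. The side of 0 on which each gene lies is fixed by the separation of the genotypes, and the longest bars, 3.55 and -2.46, stand at number 4.

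Little of the surrounding metabolism was measured by probes with 1 gene. Of 259 loci in 9 lists of respiration, fermentation and neighbouring pathways, 5 had such a probe, the 2 genes among them. A further 11 were listed only on probes with several genes, which were not read gene by gene. They were 6 of pyruvate dehydrogenase and the tricarboxylic acid cycle, 3 of the respiratory chain and 2 of the chloroplast ATP synthase. AT5G47030 was the only measured subunit of the mitochondrial ATP synthase out of 24 loci listed, and AT4G17260 the only measured gene of fermentation and pyruvate use out of 19. No locus of ethanol fermentation, the low-oxygen response, glycolysis, the tricarboxylic acid cycle, alternative respiration or the chloroplast ATP synthase was measured by a 1-gene probe. The same held for the markers of roots, seeds, pollen and phloem, so the organs in the samples could not be checked, and a change in transcript per cell cannot be told apart from a change in the share of cells that express the gene.

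The other 3 measured loci belong to the respiratory chain list and are not among the 2 genes picked on this contrast, so they were tested. The list itself was chosen with earlier results of these data known, so these tests may not be independent of that choice. Of these 3, 1 was lower in pam48 and 2 did not pass, where 11.0% of all probes passed in either direction. Their changes were -0.91, -0.84 and 0.21 (log2), and the median over all probes was -0.034. The called gene, GLDH (AT3G47930), encodes L-galactono-1,4-lactone dehydrogenase, which makes ascorbate in the mitochondrion and is needed to assemble complex I without being one of the subunits of the mature complex. Its normalised log2 intensity was -2.15, -2.75, -2.65, -2.71, -1.81 and -2.13 in pam48 samples 1 to 6. In WT samples 1 to 6 it was -1.80, -1.40, -0.82, -0.98, -1.84 and -1.88. The genotypes overlapped in the samples numbered 5 and 6, whose couple changed by -0.11, against -0.85 in 1 and 2 and -1.79 in 3 and 4.

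GLDH changed by -0.91 ± 0.24 (log2, SE; limma, adjusted p = 0.035), a 1.88-fold lower level in pam48. In the fit that pairs same-numbered samples through a replicate block, GLDH did not pass (limma, adjusted p = 0.094), nor with couples as a random block (adjusted p = 0.28). On the values as deposited its change was -0.067 (adjusted p = 0.84).

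AT4G02580, which encodes an iron-sulphur subunit of the NADH-binding arm of complex I, gave -0.84 ± 0.51 (log2, SE; limma, adjusted p = 0.32). Its normalised log2 intensity was -3.61, -3.29, -3.43, -4.12, -4.15 and -4.29 in pam48 samples 1 to 6, against -3.12, -2.29, -2.09, -1.46 and 2 values at the floor in WT samples 1 to 6. WT samples 5 and 6 were thus the lowest of all, and WT 1 to 4 the highest, so the difference turned with the number: -2.0 in numbers 3 and 4 and 0.21 in 5 and 6. With all samples and couples as a random block the adjusted p was 0.66 (limma). Without numbers 5 and 6, the couple with the opposite direction, the change was -1.40 (limma, adjusted p = 0.024). Leaving out that couple makes the change larger by construction, so this p-value adds no evidence. In the fit without numbers 5 and 6, 1237 of the 3439 probes were called.

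AT5G47890, which encodes an accessory subunit of complex I, gave 0.21 ± 0.19 (log2, SE; limma, adjusted p = 0.53). It ran from -2.89 to -2.20 in pam48 and from -3.07 to -2.17 in WT, so the genotypes overlapped widely. On the values as deposited AT5G47890 passed at 1.33 (adjusted p = 0.0018), on a scale that puts the median probe 0.70 higher in pam48. Among the 4 respiratory loci measured, AT5G47030 was thus the one whose genotypes did not overlap after normalisation, and it is the one chosen for its difference.

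**Figure D5:**
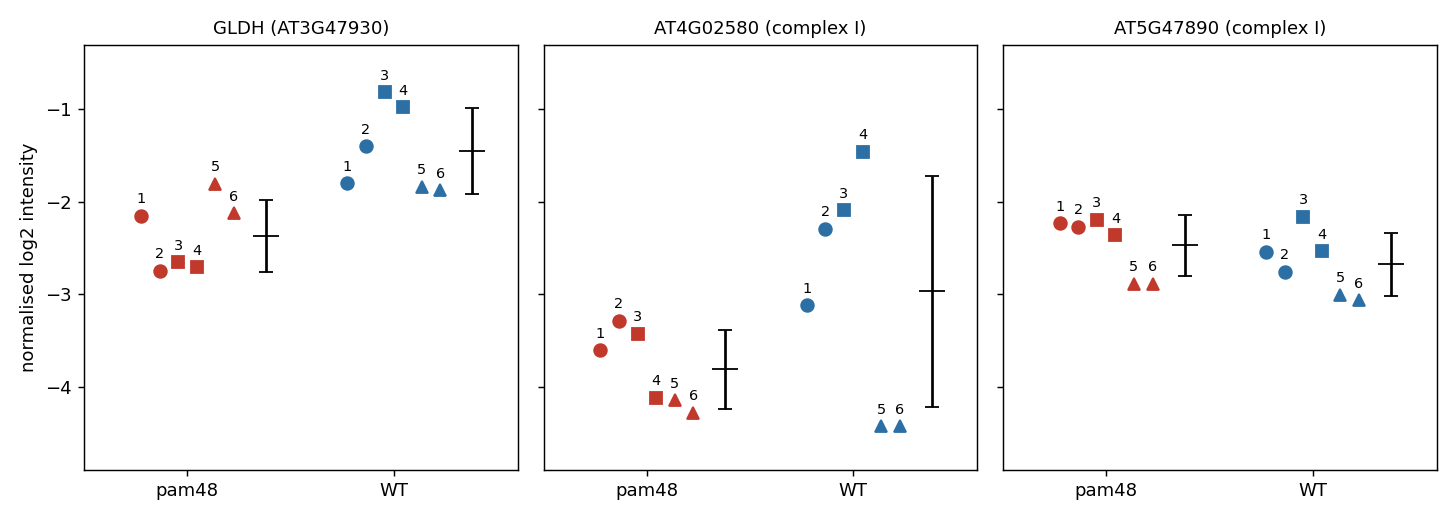
Normalised log2 intensity (vertical axis) of GLDH, AT4G02580 and AT5G47890 in each pam48 and WT sample, with sample numbers and with the mean and SD of 6 samples as the black bar. In each of the 3 panels pam48 and WT points overlap, and WT samples 5 and 6 of AT4G02580 stand at the floor, -4.43.

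The genes whose levels followed each member most closely over the 12 samples were sought among 514 other 1-gene probes above the floor in at least 10 samples. For AT5G47030 these were PRK, phosphoribulokinase of the Calvin cycle (Pearson r = 0.94), AT3G09080 (0.91), AT4G31470 (0.90) and AT1G16080 (0.90). With the mean of each genotype removed, the same r values were 0.60, 0.33, 0.45 and 0.62, so most of the likeness lay in the genotype difference. The means of all 4 genes were lower in pam48, by differences between -2.40 and -0.87 (log2). That direction follows from picking genes with a high r to a probe that separates the genotypes.

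For AT4G17260 the closest were AT5G62360 (r = 0.95), AT5G15280 (0.93), AT3G11150 (0.91) and AT3G50270 (0.91). With genotype means removed, these r values were 0.87, 0.95, 0.82 and 0.83, each taken over both genotypes together. AT4G17260 spread more in WT (log2 SD 1.04) than in pam48 (0.29). These values thus rest mostly on WT samples and the differences between their couples described above. No r was computed within pam48 alone. The means of all 4 genes were higher in pam48, by differences between 1.14 and 1.72 (log2). That direction is again set by how the genes were picked, and only the sizes are read. These r values are descriptions over 12 samples that share scaling and come in closely agreeing couples.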

How the data were processed

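One table of the whole series was used. Its values are spot intensities on a linear scale as deposited by the authors, from 0 to 100 in every sample, with 3 to 7 spots per sample at the maximum and 143 to 385 at 0. How spots were labelled, scanned, background corrected or scaled was not given in the sources used here. Probe names came from the platform annotation, updated through Entrez identifiers to the TAIR10.1 gene table: 692 probes had 1 gene (690 matched), 870 had several and 1877 were not listed.

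Intensities were quantile normalised between samples, raised to 1 common floor (the highest over samples of the 5th percentile of spots with a deposited value above 0) and turned to log2. The floor held 15.6% to 15.7% of the probes of a sample, and 60 probes stood at it in all 12 samples. The contrast was fitted in R 4.3.3 with limma 3.58.1 (lmFit, eBayes, pam48 minus WT, two-sided, Benjamini-Hochberg over 3439 probes, threshold 0.05). The fit was run beforehand on simulated data with independent noise in each sample, which cannot show how it behaves with closely agreeing couples. The number of arrays limits the precision. After genotype means were removed, each pam48 sample correlated with the WT sample of its number (r of 0.27 to 0.47 over probes, 6 of 6 above 0.1). The numbers were therefore taken to pair the samples in the replicate block, from the data alone, since no label explains them. These r values cannot tell pairing by number from a likeness shared by a couple. The main fit left the pairing out.

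The 2 genes and the gene lists were chosen with earlier results of these data known. Named genes are the 2, every listed locus with a 1-gene probe in lists with up to 6 such loci, and the 4 genes closest to each of the 2. Alternatives covered the floor, the scaling, the replicate block, couples of consecutive numbers, left-out samples and dim probes.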

Additional observations from a re-analysis of the deposited data

Results flagged for a closer look

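In the log2 ratio of AT4G17260 over AT5G47030 on deposited intensities, pam48 4 stood at 4.93 while the other 5 pam48 samples ran from 1.93 to 2.98. That gap takes up 0.65 of the span of the 6 values and exceeds the critical value of Dixon's test at 95%, but it rests on AT5G47030 in pam48 4, which lay below the floor and has only an upper bound. On the normalised scale with the floor the pam48 ratios ran from 1.94 to 3.55, with no such gap. It was the only such case among the 12 groups examined, a count that depends on the scales chosen. As a plain ratio pam48 4 stood apart too, at 30.4 against 3.81 to 7.88. Chance flags about 1 group in 20 where groups are independent, which values sharing a spot are not. Deposited intensity of AT5G47030 in pam48 4 was 0.0259, the lowest of the 12 samples, and that of AT4G17260 was 0.787, within the range of the other pam48 samples.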

How the results depend on the processing

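The direction of the changes of AT5G47030, of AT4G17260 and of their ratio is fixed by the choice of the genes, and the fits with blocks, averaged couples or fewer dim probes cannot move these values. On the values as deposited, with a common floor, they were -0.63, 2.56 and 3.19 (log2), and without that floor -0.78, 2.97 and 3.75. Leaving out 1 sample gave -1.76 to -1.51 for AT5G47030, 1.37 (without WT 4) to 1.94 for AT4G17260 and 2.92 to 3.68 for the ratio. The count of 377 called probes (135 higher, 242 lower) was 580 with each sample's own floor (169 higher, 411 lower), 591 with median centring (121 higher, 470 lower), 1324 on the values as deposited (1225 higher, 99 lower), 1237 without numbers 5 and 6, 105 without the samples numbered 4 (an alternative chosen after seeing the data), 61 with couples as a random block and 0 with couples averaged. It was 470 with the replicate block, and from 212 to 466 without 1 sample, with 235 without pam48 2, 221 without pam48 3, 212 without pam48 4, 228 without WT 3 and 228 without WT 4. Of the 3 other respiratory chain loci, 1 was called, and 0 with cyclic loess, the replicate block, couples averaged, couples as a random block or without the samples numbered 4. The number was 2 without numbers 5 and 6, the couple in which AT4G02580 went the other way, and from 0 to 1 without 1 sample. GLDH lost its call without pam48 1, 2, 3 or 4 or WT 2, 3 or 4 (highest adjusted p = 0.080). The causes were not tested. Dim spots limit both members: pam48 4 and WT 4 each hold a bound, and AT5G47030 in pam48 1, 3 and 6 lay little above the floor.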
